A study of Mus musculus with 7 samples.

Results

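The miR-200 family (miR-200a-3p, miR-200b-3p, miR-200c-3p, miR-141-3p and miR-429-3p), together with miR-203-3p and miR-205-5p, was followed in extracellular vesicles from mouse fat. Vesicles are membrane-bound particles that cells release with part of their RNA. The 7 microRNAs (miRNAs) are the guide arms of these hairpins, chosen by name, and all 7 were found among the 1084 entries of the count table. The vesicles came from fat of male C57BL/6J mice given a high-fat diet (HFD, 3 libraries) or chow (Chow, 4 libraries) for 12 weeks. The labels name neither the fat depot nor whether a library is 1 animal or a pool. Each p-value below thus weighs a difference against the library-to-library spread, part of which may be technical. Names carry the prefix mmu- for mouse in the table. The design asks which vesicle miRNAs differ with diet.

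A miRNA guides a silencing complex to messenger RNAs that pair with its seed, the bases 2 to 8 from its 5′ end. The miR-200 family is known as a keeper of the epithelial state: it represses ZEB1 and ZEB2, transcription factors that switch off E-cadherin, and these factors in turn repress the miR-200 genes. miR-203 is best known from skin, where it limits the stem cell state of the epidermis, and miR-205 from the basal layers of stratified and glandular epithelia. Fat cells, fibroblasts and leukocytes are not epithelial, and no miRNA was taken as a marker of adipocytes alone.

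The mature sequences from RefSeq (GRCm38.p6), 5′ to 3′, are shown because they set the groups used below, with the seed in capitals. All 7 names matched.
mmu-miR-200a-3p: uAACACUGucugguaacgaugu
mmu-miR-141-3p: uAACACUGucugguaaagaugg
mmu-miR-200b-3p: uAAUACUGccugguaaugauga
mmu-miR-200c-3p: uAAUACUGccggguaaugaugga
mmu-miR-429-3p: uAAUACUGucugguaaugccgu
mmu-miR-203-3p: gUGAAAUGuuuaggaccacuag
mmu-miR-205-5p: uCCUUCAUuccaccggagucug
miR-200a-3p and miR-141-3p share the seed AACACUG, and miR-200b-3p, miR-200c-3p and miR-429-3p share AAUACUG. The seeds differ at 1 base, written C4U from miR-200a-3p to miR-200b-3p, with positions counted from 1 at the 5′ end. miR-200a-3p and miR-141-3p differ at 2 of 22 positions (C17A and U22G). miR-200b-3p and miR-200c-3p also differ at 2 of the 22 positions they share (U11G and A22G). How reads that fit more than 1 of these sequences were counted is not given in the sources used here, so counts within each of these pairs may be split unevenly.

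The family is encoded at 2 loci, and each pairs both seeds. In RefSeq coordinates of GRCm38.p6, Mir429 (156053905 to 156053987), Mir200a (156054896 to 156054985) and Mir200b (156055681 to 156055750) lie within 1846 bases on the minus strand of chromosome 4. In GENCODE M21 they lie within the gene bodies of Ttll10 and the noncoding gene Gm13648 on the same strand, Mir429 over an exon of Gm13648 and the others outside annotated exons. Mir141 (124717914 to 124717985) and Mir200c (124718322 to 124718390) lie within 477 bases on the minus strand of chromosome 6, inside the noncoding gene Gm15884, which GENCODE classes as antisense, and Mir141 also overlaps an exon of the unverified gene Gm29008. Mir203 (112130880 to 112130955) is on the plus strand of chromosome 12 outside other annotated genes, apart from the antisense miRNA given below. Mir205 (193507463 to 193507530) is on the minus strand of chromosome 1, over an exon of the noncoding gene 4631405K08Rik.

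Total miRNA counts ranged from 1825488 to 5941955 in HFD libraries and from 48840 to 2294878 in Chow libraries. Chow 2 (180694 counts) and Chow 3 (48840 counts) were the shallowest, and values without them stand beside the comparisons below. In the table of Chow libraries alone, these libraries have no value for 485 entries, and none of the 7 miRNAs is among them. The most abundant miRNA, miR-148a-3p, took 21.0% to 26.4% of the counts in HFD libraries and 39.7% to 58.0% in Chow libraries. A share of the total therefore moves with it.

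The 7 miRNAs had counts in every library, though as few as 5 for miR-205-5p in Chow 3. Their summed share of the counts overlapped between the diets. Together they held 1.78%, 1.60% and 1.43% of the counts in HFD 1 to HFD 3, against 1.93%, 1.37%, 1.54% and 1.94% in Chow 1 to Chow 4. Chow 2 was the lowest, and Chow 1 and Chow 4 the highest. The means were 1.61% ± 0.176 in HFD (SD, n = 3) and 1.70% ± 0.286 in Chow (SD, n = 4), or 1.94% over Chow 1 and Chow 4. The miR-200 family made up most of this, at 23.3 to 27.05 counts per count of miR-203-3p and miR-205-5p in HFD libraries and 24.1 to 33.1 in Chow libraries. CPM are counts scaled to a common library total of 1000000. When miR-148a-3p was left out of the library total, the set held 18141 to 24254 CPM in HFD libraries. In Chow libraries it held 24381 to 45179 CPM, so the diets did not overlap. The gap was narrow, between HFD 1 (24254) and Chow 2 (24381), and Chow 2 rests on 2478 counts of the set. Of single tested miRNAs, 15.9% were lower in every HFD library on this scale.

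**Figure D1:**
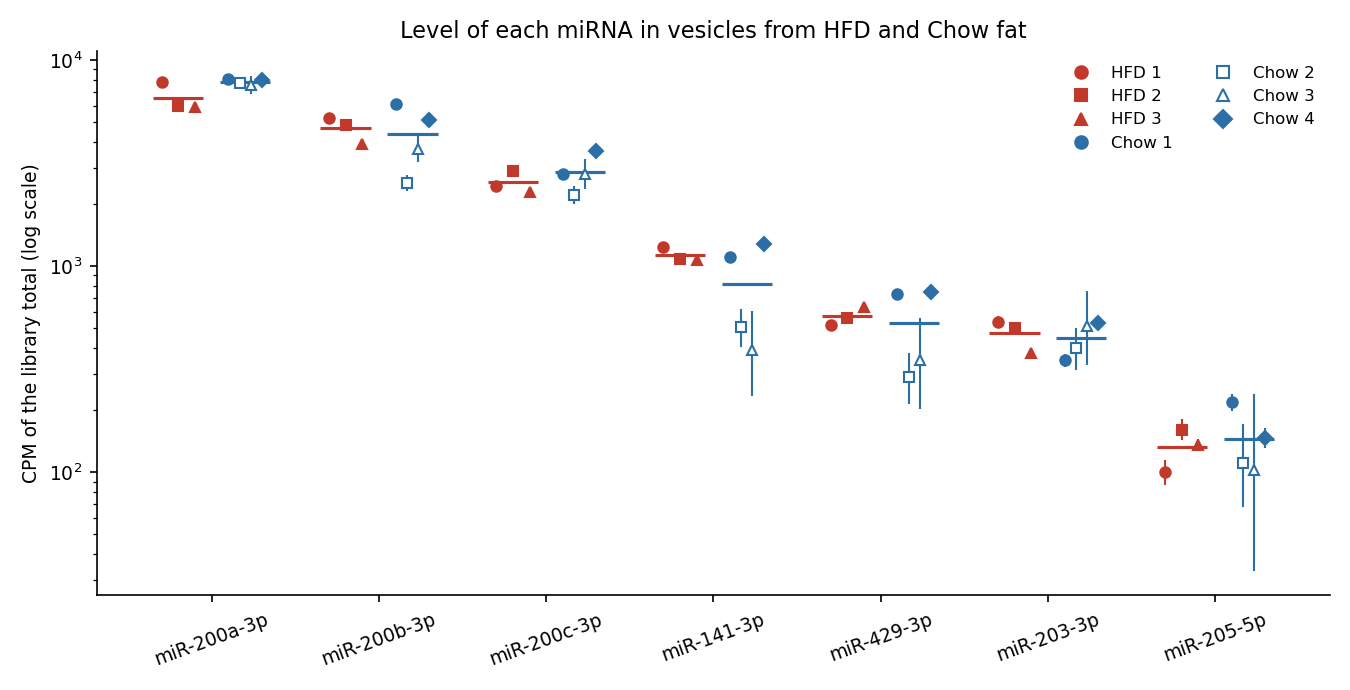
Level of each miRNA in CPM of the library total (log axis), HFD in red left of Chow in blue, with 1 point per library. Horizontal lines are diet means, vertical lines are exact Poisson 95% intervals, and open symbols are Chow 2 and Chow 3. The diets overlap for all 7 miRNAs, and miR-141-3p in Chow 2 and Chow 3 (504 and 389 CPM) lies under the other 5 libraries.

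Among miRNAs with the AACACUG seed, miR-200a-3p was the highest of the 7 in every library. It stood at 7765, 5991 and 5927 CPM in HFD 1 to HFD 3, against 8063, 7681, 7576 and 7976 CPM in Chow 1 to Chow 4. The HFD libraries reached above the lowest Chow libraries, and HFD 2 and HFD 3 lay under all of Chow. After TMM scaling, which adjusts the library totals for a few dominant miRNAs, it averaged 5894 ± 1096 normalised CPM in HFD (SD, n = 3) and 8687 ± 2002 in Chow (SD, n = 4). Its log2 fold change was -0.56 (SE 0.34, 95% interval -1.30 to 0.18), which did not pass edgeR's quasi-likelihood test with Benjamini-Hochberg adjustment over all tested miRNAs (adjusted p = 0.336). It ranked between 12 and 23 among all entries of a library.

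miR-141-3p, which has the same seed and comes from the chromosome 6 locus, stood at 1233, 1081 and 1069 CPM in HFD 1 to HFD 3, against 1107, 504, 389 and 1277 CPM in Chow 1 to Chow 4. Chow 1 and Chow 4 were close to the HFD libraries, while Chow 2 and Chow 3 were lower than all the others. The Chow 3 value rests on 19 counts, with an exact Poisson 95% interval of 234 to 608 CPM. It averaged 1012 ± 111 normalised CPM in HFD (SD, n = 3) and 950.4 ± 612 in Chow (SD, n = 4), with a log2 fold change of 0.071 (SE 0.52, 95% interval -1.06 to 1.20, adjusted p = 0.963 in edgeR). The sign turned without Chow 2 (-0.18), without Chow 3 (-0.16) and without both (-0.55, adjusted p = 0.358 in edgeR).

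Among miRNAs with the AAUACUG seed, miR-200b-3p stood at 5236, 4839.8 and 3897 CPM in HFD 1 to HFD 3, against 6068, 2524, 3706 and 5114 CPM in Chow 1 to Chow 4. The HFD libraries lay inside the range of Chow, whose lowest value was Chow 2. It averaged 4171 ± 620.4 normalised CPM in HFD (SD, n = 3) and 5066 ± 2711 in Chow (SD, n = 4), with a log2 fold change of -0.28 (SE 0.45, 95% interval -1.26 to 0.69, adjusted p = 0.775 in edgeR). It was 0.11 without Chow 1.

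miR-200c-3p stood at 2455, 2895 and 2288 CPM in HFD 1 to HFD 3, against 2804, 2208, 2805 and 3615 CPM in Chow 1 to Chow 4. The HFD libraries again lay inside the Chow range. It averaged 2274 ± 179.5 normalised CPM in HFD (SD, n = 3) and 3199 ± 986 in Chow (SD, n = 4), with a log2 fold change of -0.49 (SE 0.38, 95% interval -1.32 to 0.33, adjusted p = 0.472 in edgeR).

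miR-429-3p, the third miRNA of the chromosome 4 locus, stood at 517, 559.9 and 633 CPM in HFD 1 to HFD 3, against 734, 288, 348 and 748 CPM in Chow 1 to Chow 4. Chow 1 and Chow 4 lay above all HFD libraries, and Chow 2 and Chow 3 below them. It averaged 511 ± 61.2 normalised CPM in HFD (SD, n = 3) and 618 ± 370.4 in Chow (SD, n = 4), with a log2 fold change of -0.29 (SE 0.51, 95% interval -1.41 to 0.82, adjusted p = 0.806 in edgeR). It was 0.090 without Chow 1.

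Of the miRNAs outside the family, miR-203-3p stood at 536, 499 and 379 CPM in HFD 1 to HFD 3, against 348, 398, 512 and 532 CPM in Chow 1 to Chow 4. The diets covered nearly the same range. Its log2 fold change was -0.21 (SE 0.40, 95% interval -1.09 to 0.66, adjusted p = 0.815 in edgeR). Its counts carry a further limit, because the antisense entry miR-203b-5p lies over the same bases of chromosome 12 and is complementary to it over 20 bases. miR-203b-5p had 464, 414 and 1426 counts in HFD 1 to HFD 3, against 401, 27, 13 and 603 in Chow 1 to Chow 4. That is 0.375 to 0.634 counts per count of miR-203-3p. The 2 entries had equal counts in 0 of 7 libraries. The strand setting of the counting is not given in the sources used here, so some reads may be counted under the wrong entry.

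miR-205-5p was the scarcest, at 100.01, 161 and 135 CPM in HFD 1 to HFD 3, against 218, 111, 102 and 146 CPM in Chow 1 to Chow 4. Chow 1 stood above the other 6 libraries, and the Chow 3 value rests on 5 counts (exact Poisson 95% interval 33.2 to 239 CPM). The log2 fold change was -0.57 (SE 0.51, 95% interval -1.68 to 0.55, adjusted p = 0.562 in edgeR) and -0.070 without Chow 1.

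Of the 7 miRNAs, all tested, 0 passed the adjusted threshold of 0.05 in edgeR, where 11 of 385 tested miRNAs did (2.86%), 3 of them lower in HFD (0.779%) and 8 higher (2.08%). At an unadjusted p under 0.05 edgeR gave 0 of the 7 and 24.2% of all tested. DESeq2 and limma-voom each gave 0 of the 7 past the adjusted threshold. Of all tested, 12.2% passed it in DESeq2 and 16 of 385 in limma-voom. For 0 of the 7 were the normalised CPM of the diets free of overlap, where 22.3% of tested miRNAs were. The intervals are wide: for miR-200a-3p the fold change lay between 0.407 and 1.13, and for miR-141-3p between 0.481 and 2.30, so a 2-fold fall of either lies within them. In a bulk vesicle sample, fewer vesicles from a cell type and less of a miRNA per vesicle cannot be told apart.

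The sign of the fold changes depended on the scaling. With TMM, 6 of the 7 were negative, against 50.6% of all tested miRNAs, with a median of -0.29 for the set and -0.021 for all tested. With library size as the only scaling, which moved the median of all tested to 0.31, 4 of the 7 were positive and the median of the set was 0.078. The set's median was below that of all tested on either scale.

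Without Chow 2 and Chow 3, 7 of the 7 fold changes were negative (56.6% of all tested), between -0.99 for miR-205-5p and -0.35 for miR-203-3p, with a median of -0.77 against -0.13 for all tested. At an unadjusted p under 0.05, 5 of the 7 were lower in HFD, where 11.4% of tested miRNAs were (23.6% in either direction). These were miR-200a-3p, miR-200b-3p, miR-200c-3p, miR-429-3p and miR-205-5p, and 0 of the 7 passed the adjusted threshold in edgeR (lowest adjusted p = 0.188, for miR-200c-3p). Members of a locus are not independent, so the 5 do not count as 5 separate results. In normalised CPM, 6 of the 7 were lower in every HFD library than in Chow 1 and Chow 4 (24.2% of tested miRNAs), miR-203-3p being the other. In CPM of the plain library total this held for miR-200a-3p and miR-429-3p. The share of all tested miRNAs on that scale was not computed, so this count has no background. The TMM factor of Chow 1 was 0.711 and those of the other libraries 0.914 to 1.18, and the part of this scaling in the result was not tested.

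**Figure D2:**
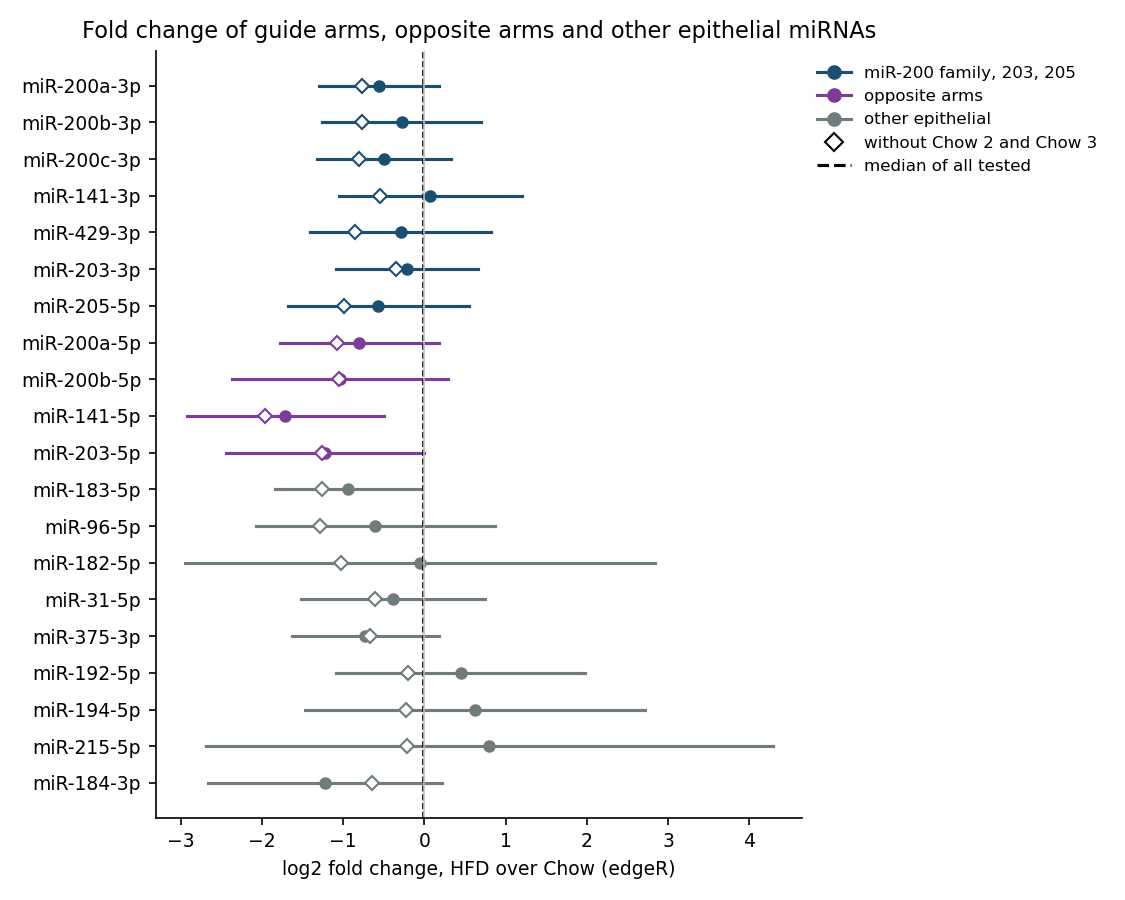
Log2 fold change, HFD over Chow, for the 7 guide arms (blue), the opposite arms that were tested (purple) and other epithelial miRNAs (grey). Circles with lines are edgeR estimates with 95% intervals over all 7 libraries, diamonds are estimates without Chow 2 and Chow 3, and the dashed line is the median of all tested miRNAs. The intervals of all 7 guide arms include 0, and the diamonds of all 7 lie left of it.

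With miR-148a-3p left out of the library total, miR-200a-3p and miR-200c-3p were lower in every HFD library than in every Chow library, as were 15.9% of tested miRNAs (7.03% were higher in every HFD library). miR-200a-3p then stood at 7504 to 10555 CPM in HFD libraries and 13225 to 18832 CPM in Chow libraries. miR-200c-3p stood at 2897 to 3799 CPM in HFD libraries and 3926 to 6676 CPM in Chow libraries. The gap lay between HFD 2 (3799) and Chow 2 (3926), which rests on 399 counts. The other 5 miRNAs overlapped on this scale too. miR-148a-3p held a smaller share in HFD, so its omission raises every remaining value by more in Chow than in HFD. With it left out of the edgeR fit, 0 of the 7 passed the adjusted threshold, where 9 of 391 tested miRNAs did. An unadjusted p under 0.05 was found for 84 of the 391 and for 0 of the 7.

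The order of the levels was largely fixed. miR-200a-3p exceeded miR-200b-3p, miR-200b-3p exceeded miR-200c-3p, and miR-200c-3p exceeded miR-141-3p in 7 of 7 libraries. miR-141-3p exceeded miR-429-3p and miR-203-3p exceeded miR-205-5p in 7 of 7 as well. miR-429-3p exceeded miR-203-3p in 4 of 7 libraries, so this pair did not differ beyond its spread, and the means were 547 and 458 CPM over all libraries. The mature miRNAs are 22 or 23 bases long, so length hardly enters these comparisons, but ligation to adapters can differ between sequences.

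Ratios within a library do not depend on scaling. The chromosome 4 locus gave 3.67, 2.87 and 3.12 counts per count of the chromosome 6 locus in HFD 1 to HFD 3, against 3.801, 3.87, 3.64 and 2.83 in Chow 1 to Chow 4. This balance varied by 13.2% over the 7 libraries (coefficient of variation), and the diets overlapped. miRNAs with the AAUACUG seed gave 0.912, 1.17 and 0.975 counts per count with the AACACUG seed in HFD 1 to HFD 3, against 1.05, 0.613, 0.861 and 1.02 in Chow 1 to Chow 4. The seeds were thus nearly even in the 5 deeper libraries, and Chow 2 stood lowest. In Chow 2 and Chow 3, miR-200a-3p had 3.04 and 2.04 counts per count of miR-200b-3p, whereas the ratio was 1.24 to 1.52 in HFD libraries and 1.33 and 1.56 in Chow 1 and Chow 4. Likewise miR-200c-3p had 4.38 and 7.21 counts per count of miR-141-3p in Chow 2 and Chow 3, whereas the ratio was 1.99 to 2.68 in HFD libraries and 2.53 and 2.83 in Chow 1 and Chow 4.

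**Figure D3:**
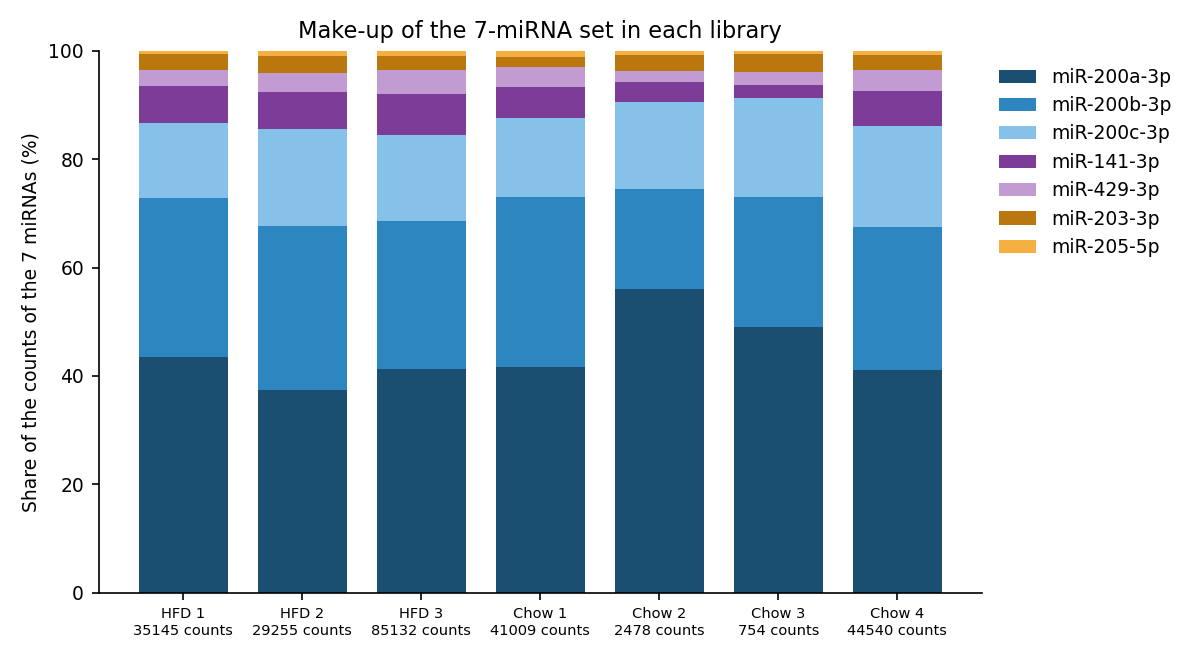
Share of the set's counts held by each of the 7 miRNAs (percent, stacked) in HFD 1 to HFD 3 and Chow 1 to Chow 4, with the set's counts under each bar. miR-200a-3p holds 37.4% to 43.5% in HFD libraries and 41.1% to 56.0% in Chow libraries.

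Within the set, miR-141-3p held 6.91%, 6.74% and 7.46% of the counts in HFD 1 to HFD 3, against 5.72%, 3.67%, 2.52% and 6.58% in Chow 1 to Chow 4. The diets did not overlap, but Chow 4 lay close to HFD 2, and the exact binomial (Clopper-Pearson) 95% intervals of these overlapped, at 6.46% to 7.04% in HFD 2 and 6.35% to 6.81% in Chow 4. The lowest shares were those of Chow 2 and Chow 3, which rest on 91 and 19 counts of miR-141-3p. The shares of the other 6 miRNAs overlapped between the diets. Such intervals cover counting error only, since no molecular identifiers tell copies made by PCR apart.

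Of 161 tested miRNAs with a mean of at least 100 CPM, miR-200a-3p had the lowest coefficient of variation over the 7 libraries in CPM, at 12.6%, against a median of 47.8%. miR-203-3p (17.4%) and miR-200c-3p (17.5%) were the third and the fourth lowest, and miR-141-3p (37.3%) was the most variable of the set. Over the 5 libraries other than Chow 2 and Chow 3, where the median was 38.2%, miR-141-3p was the lowest of the 161 at 8.25%. The values there were also smaller for miR-200b-3p (15.5%, against 26.4% over all 7), miR-429-3p (16.1% against 32.6%) and miR-205-5p (28.5% against 30.1%). They were larger for miR-200a-3p (15.2%, in position 13), miR-200c-3p (18.3%) and miR-203-3p (19.4%). In normalised CPM the values were higher, at 28.7% for miR-200a-3p in position 18, 20.5% for miR-203-3p in position 6 and 30.7% for miR-200c-3p in position 22, against a median of 44.9%. miR-205-5p (51.2%) and miR-429-3p (47.3%) were then above that median.

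**Figure D4:**
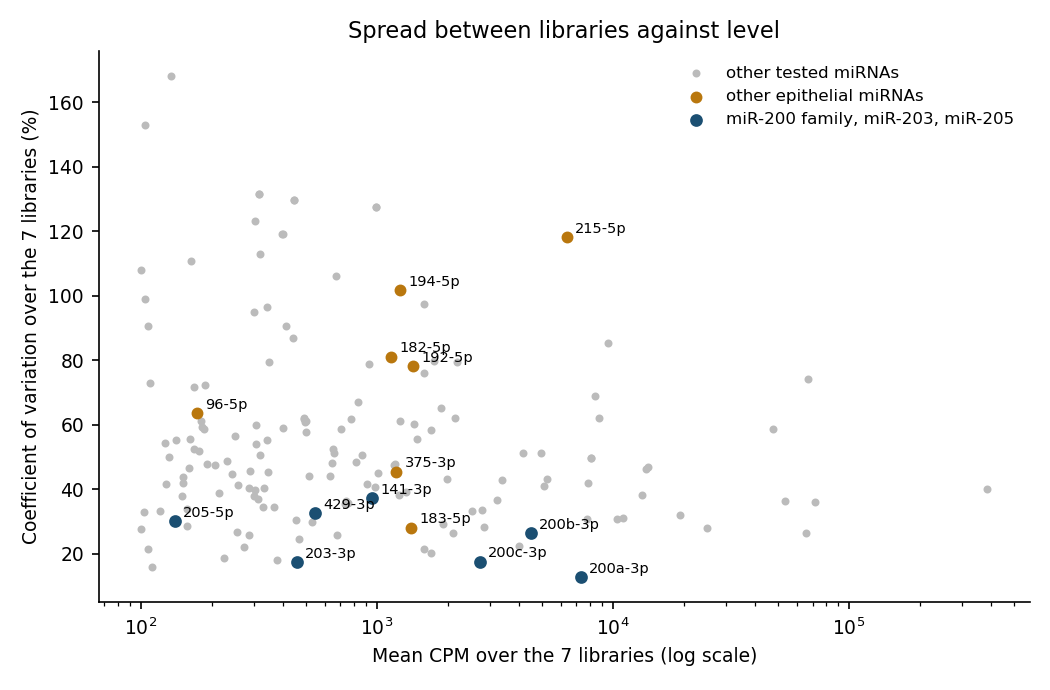
Coefficient of variation over the 7 libraries (percent) against mean CPM (log axis) for 161 tested miRNAs with a mean of at least 100 CPM. The miR-200 family, miR-203-3p and miR-205-5p (blue) lie between 12.6% and 37.3%, and the 7 other epithelial miRNAs that reach this level (orange) between 28.0% and 118%.

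The list of other epithelial miRNAs held 9: miR-183-5p, miR-96-5p and miR-182-5p (a cluster of sensory epithelia), miR-31-5p and miR-184-3p (skin and eye surface), miR-375-3p (islet and gut endocrine cells), and miR-192-5p, miR-194-5p and miR-215-5p (gut and kidney). Of the 9, all tested, none rose or fell in edgeR, and the median fold change was -0.39. Of the 9 fold changes, 3 were positive and 6 negative, where 50.6% of all tested miRNAs were negative. Without Chow 2 and Chow 3 the median was -0.65, beside -0.77 for the set of 7 and -0.13 for all tested. The highest on average was miR-215-5p, with 28464, 22253 and 6191 counts in HFD 1 to HFD 3, against 1358, 2, 0 and 37401 in Chow 1 to Chow 4. Its coefficient of variation was 118%, and its log2 fold change was 0.80 (SE 1.60). miR-192-5p had 5752, 3639 and 3581 counts in HFD libraries and 1108, 158, 14 and 6265 in Chow libraries, with a log2 fold change of 0.44 (SE 0.71). miR-183-5p, whose coefficient of variation (28.0%) lay under those of miR-205-5p, miR-429-3p and miR-141-3p, had 1517, 2124 and 7618 counts in HFD libraries and 4116, 292, 62 and 3905 in Chow libraries, with a log2 fold change of -0.94 (SE 0.41, adjusted p = 0.194 in edgeR). miR-182-5p is one of the entries left blank for Chow 2 and Chow 3 in the separate table, and its 0 there is no measurement: its coefficient of variation was 81.1% with these zeros and 38.2% over the other 5 libraries.

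The opposite arms of the hairpins were scarce. Over all libraries, there were 47.04 counts of miR-200a-3p per count of miR-200a-5p, 118 of miR-200b-3p per count of miR-200b-5p, 127 of miR-141-3p per count of miR-141-5p and 41.3 of miR-203-3p per count of miR-203-5p. miR-200c-5p had at most 2 counts and miR-205-3p at most 4 in any library, and neither was tested. No entry named miR-429-5p was in the count table.

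miR-141-5p had 10, 8 and 38 counts in HFD 1 to HFD 3, against 28, 2, 0 and 41 in Chow 1 to Chow 4. It made up 0.410%, 0.404% and 0.595% of the counts of both arms in HFD libraries, against 1.18%, 2.15%, 0% and 1.38% in Chow libraries. The 0 of 19 counts in Chow 3 allows a share of up to 17.6% (exact binomial 95% interval). Apart from Chow 3, all Chow libraries were higher than all HFD libraries. The log2 fold change was -1.72 (SE 0.56, edgeR unadjusted p = 0.00950, adjusted p = 0.0944), which did not pass, beside 0.071 for the guide arm. The difference in share had an exact two-sided permutation p of 0.257 over 35 assignments of the libraries (0.514 adjusted over 4 arms).

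miR-203-5p made up 1.95%, 2.04% and 1.62% of the counts of both arms in HFD 1 to HFD 3, against 2.77%, 2.70%, 7.41% and 3.94% in Chow 1 to Chow 4. The diets did not overlap, and the exact permutation p was 0.0857 (0.343 adjusted), where 0.0286 is the smallest that 35 assignments allow. The Chow 2 and Chow 3 shares rest on 2 counts each. The antisense entry miR-203b-3p has the same count as miR-203-5p in 7 of 7 libraries, so these counts may belong to either or both. The log2 fold change was -1.22 (SE 0.56, adjusted p = 0.205 in edgeR).

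miR-200a-5p made up 1.79% to 2.13% of both arms' counts in HFD libraries and 1.33% to 2.73% in Chow libraries (exact permutation p = 0.486, 0.648 adjusted). miR-200b-5p made up 0.588% to 0.886% in HFD libraries and 0% to 4.20% in Chow libraries (exact permutation p = 0.714, 0.714 adjusted). Their log2 fold changes, -0.80 (SE 0.45) and -1.04 (SE 0.61), did not pass in edgeR (adjusted p = 0.302 and 0.324). Over the 5 libraries other than Chow 2 and Chow 3, the exact permutation p was 0.2 for miR-200a-5p, 0.7 for miR-200b-5p and 0.1 for both miR-141-5p and miR-203-5p, unadjusted, and 0.1 is the smallest that 10 assignments allow.

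**Figure D5:**
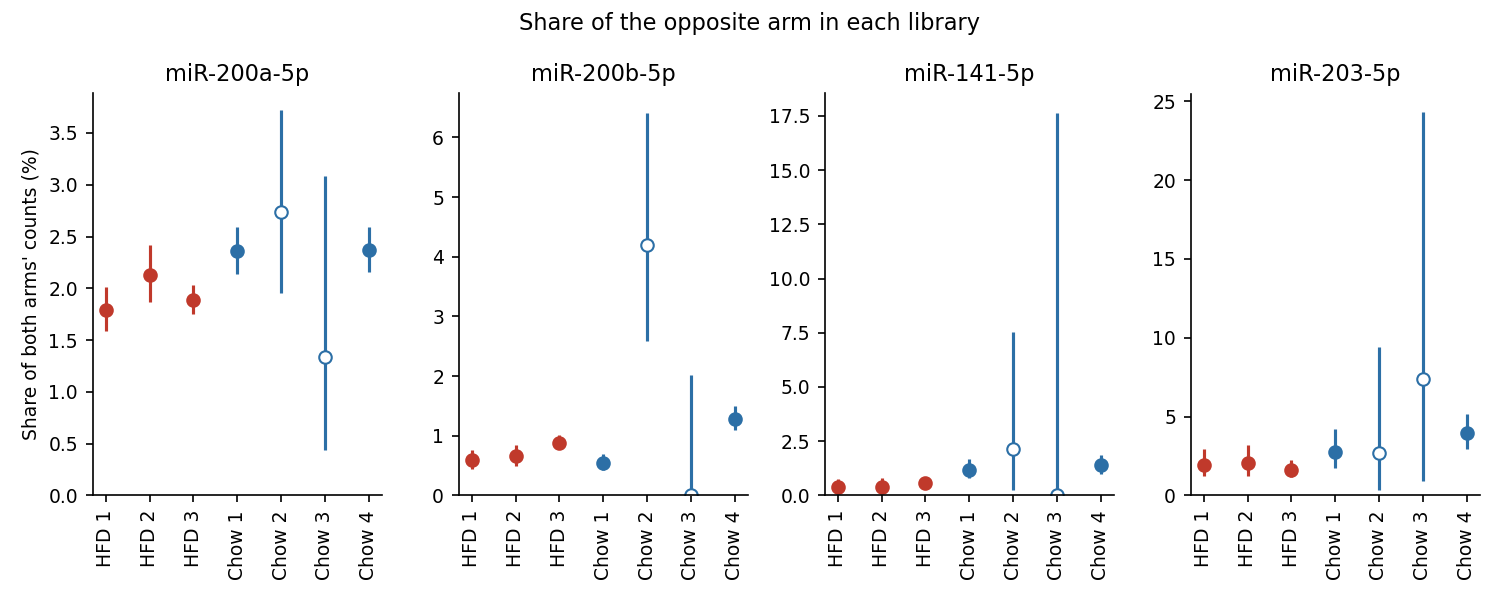
Share of the opposite arm in the counts of both arms (percent) in each library, HFD in red left of Chow in blue, with exact binomial 95% intervals; open symbols are Chow 2 and Chow 3. For miR-203-5p the HFD libraries (1.62% to 2.04%) lie under all Chow libraries (2.70% to 7.41%), and for miR-141-5p under all but Chow 3.

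The tested miRNAs whose pattern was most like that of the set were miR-872-5p (Pearson r = 0.93), miR-199b-5p (0.92), miR-362-3p (0.90), miR-218-5p (0.89) and miR-96-5p (0.88). The measure was the correlation over the 7 libraries between a miRNA's log2 CPM after TMM scaling and the mean of the 7 after each was centred. Without Chow 2 and Chow 3, over 5 libraries, the same values were 0.90, 0.87, 0.82, 0.79 and 0.85, in that order of miRNAs. The libraries share depth and scaling factors, and in this mean Chow 1 (0.76) and Chow 4 (0.45) were highest and Chow 2 (-0.68) lowest. Among the 21 pairs within the set, r ran from 0.30 for miR-203-3p with miR-205-5p to 0.91 for miR-200b-3p with miR-429-3p, with a median of 0.69. Over the 5 libraries the same end pairs had r of 0.25 and 0.83, and the highest pair was miR-200a-3p with miR-141-3p at 0.99, which had 0.32 over all 7. The order of the pairs therefore rests on which libraries enter.

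Markers of other cells were read in the same libraries. Of 5 leukocyte markers, 3 rose in edgeR (miR-223-3p, miR-142a-3p and miR-142a-5p), and the list summed to 2324 to 7827 CPM in HFD libraries and 348 to 1350.4 CPM in Chow libraries. Of 2 endothelial markers, miR-126a-3p fell (sum 1058 to 1147 CPM in HFD and 1797 to 5955 CPM in Chow). Of 4 stromal and smooth muscle markers, miR-143-3p fell (sum 5418 to 6632 CPM in HFD and 9672 to 26155 CPM in Chow). Of these 4, 2 fold changes were negative and 2 positive, the latter for miR-199a-3p (0.041) and miR-214-3p (0.40). miR-143-3p alone averaged 2797 CPM in HFD and 14559 CPM in Chow. These 5 calls stood among 11 of 385, and 0 of them passed without Chow 2 and Chow 3 (adjusted p = 0.0628 to 0.116 in edgeR) or without HFD 2 (adjusted p = 0.160 to 0.206 in edgeR), with the same signs. Omission of Chow 2, Chow 3, Chow 4, HFD 1 or HFD 3 also ended some of them, miR-126a-3p under each, while all 5 passed without Chow 1. None of 3 erythroid (625 to 2243 CPM in HFD and 1434 to 2911 CPM in Chow), 3 striated muscle (183 to 4082 CPM in HFD and 138 to 1439 CPM in Chow) and 1 hepatocyte marker (121 to 151 CPM in HFD and 183 to 1720 CPM in Chow) passed. None of 15 tested markers of testis and epididymis passed either (1086 to 4251 CPM in HFD and 559 to 1235 CPM in Chow). Of these 15, 14 were positive, where 190 of 385 tested miRNAs were, with a median of 1.71, or 1.46 without Chow 2 and Chow 3, which hold no measurement for 5 of them. The medians without Chow 2 and Chow 3 were 2.03 for the leukocyte list, -1.15 for the endothelial, -0.42 for the stromal and smooth muscle, -0.27 for the erythroid, 0.83 for the striated muscle list and -1.23 for the hepatocyte marker. Whether any list differed from the set was not tested. Every listed marker had counts in at least 1 library. The part of these cells in the levels of the set was not tested.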

How the data were processed

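The authors deposited raw counts of reads for each mature miRNA, per the file headers and the whole-number values, with 1 column per library in a combined table of 1084 entries and in separate tables for each diet. The separate and combined tables differed at 0 values apart from blanks, and the combined table was used. Bowtie is named, without a version, in the submitters' processing notes; the sources used here name no counting program, build, miRNA release or filter. All entries were fitted together in R 4.3.3 with edgeR 4.0.16 (quasi-likelihood F test, TMM, filterByExpr, diet as the only term, Benjamini-Hochberg adjustment, threshold 0.05). SEs and 95% intervals were derived from the F statistic. The test was checked on simulated counts with the same spread for every miRNA, which the real libraries need not share. CPM use the library total, and normalised CPM the TMM-scaled total. Log2 CPM for correlations had a prior count of 2. DESeq2 1.42.0 and limma-voom (limma 3.58.1) were alternatives, beside other scalings, other filters, omission of libraries, omission of miR-148a-3p, a replicate block and the separate tables. A count of 0 allows up to 3 counts, or 0.505 to 1.64 CPM in HFD libraries and 1.31 to 61.4 CPM in Chow libraries. For opposite-arm shares the test was an exact permutation, two-sided and adjusted over 4 arms. Named were the 7 miRNAs, their opposite arms, other epithelial miRNAs, the 5 of most similar pattern, the most abundant miRNA and fixed cell type markers. The members, lists and alternatives were chosen with earlier results of these data known. The samples carry shared replicate numbers, but no label says that they pair.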

Additional observations from a re-analysis of the deposited data

How the results depend on the processing

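None of the 7 miRNAs passed the adjusted threshold under any of the 18 alternatives to the fit, DESeq2 and limma-voom included; edgeR gave at most 5 of the 7 at an unadjusted p under 0.05, without Chow 2 and Chow 3. Of 126 fold changes under these alternatives, 114 kept their sign and 12 turned, and the cause was not tested. With library size scaling, miR-200b-3p (0.094), miR-203-3p (0.078) and miR-429-3p (0.084) turned positive, and with no filter on low counts they were 0.023, 0.080 and 0.054. With 1 library left out, miR-141-3p ranged from -0.18 (without Chow 2) to 0.43 and was -0.16 without Chow 3, miR-200b-3p ranged from -0.54 to 0.11 (without Chow 1) and miR-429-3p from -0.57 to 0.090 (without Chow 1). Omission of Chow 2 and Chow 3 together turned miR-141-3p to -0.55. The count of all miRNAs past the threshold was 11, and it was 39 with library size scaling, 18 with median-ratio size factors, 62 with no filter, 47 in DESeq2 and 0 without Chow 2 and Chow 3 (95 at an unadjusted p under 0.05). With 1 library left out at a time it ranged from 0 (without HFD 2, with 57 at an unadjusted p under 0.05) to 32 (without Chow 1), with 4 when Chow 2 was omitted, 6 for Chow 3 and 1 each for Chow 4 and HFD 3. The summed level of the 7 was 16065 CPM in HFD and 16976 CPM in Chow, and 21143 and 34621 CPM with miR-148a-3p out of the total. With 1 library left out it ranged from 15177 to 16934 CPM in HFD and from 16165 to 18063 CPM in Chow.

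No label says that the replicate numbers pair the samples. Deviations from the diet means correlated at 0.067, -0.16 and 0.035 for numbers 1 to 3. Not every library correlated best with its own number. With 3 and 4 libraries per diet, and Chow 2 and Chow 3 shallow, these values cannot settle whether the samples pair. With the replicate number as a block, over Chow 1 to Chow 3 and HFD 1 to HFD 3, 22 miRNAs passed, against 1 in the same libraries without the block, 0 of the 7 passed in either, and miR-429-3p was 0.14. In Chow 3 the depth gives 5 counts of miR-205-5p, 17 of miR-429-3p and 19 of miR-141-3p, while omission of Chow 1 moved these fold changes by more than omission of Chow 3: to -0.070, 0.090 and 0.43, against -0.69, -0.46 and -0.16.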
